A study of Mus musculus with 12 samples.

Results

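Solute carriers for amino acids and neurotransmitters were followed in RNA of myelin from mouse brains at 4 ages. They are the genes of the families Slc1, Slc3, Slc6, Slc7, Slc17, Slc18, Slc32, Slc36, Slc38 and Slc43, taken by gene symbol, without the astroglial glutamate transporters Slc1a2 and Slc1a3 and the creatine transporter Slc6a8. The symbols gave 72 members of the 21937 genes listed. The rule used symbols and no measured values, but it was set with earlier results of these data known. Slc7a6os was taken along by its symbol, although it is a separate gene beside Slc7a6 and no solute carrier. Myelin was obtained as a light membrane fraction of whole brains, on a sucrose density gradient, from male c57Bl6/N wild-type mice aged P18 (postnatal day 18), P75 (postnatal day 75), 6 months and 24 months. There were 3 libraries of total RNA at each age, 12 in all, and no treatment or transgene set the ages apart. At 6 months the 3 libraries came from 3 individual mice, and for the other ages the p-values below measure the spread between the samples, whatever their source. Because each fraction pools membranes of a whole brain, fewer contributing cells of a type and less RNA per cell cannot be told apart.

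Amino acid transporters move charged or polar nutrients that cannot cross a membrane by themselves. Plasma membrane carriers of the Slc1 and Slc6 families use the sodium gradient to clear glutamate, GABA, glycine and monoamines from the space around synapses. Vesicular carriers of the Slc17, Slc18 and Slc32 families use a proton gradient to load transmitter into synaptic vesicles and therefore mark the neurons that release it. Carriers of the Slc7 family exchange amino acids, many of them only after pairing with a heavy chain of the Slc3 family, and the Slc36 and Slc38 families import amino acids together with protons or sodium or release them from lysosomes. In white matter, oligodendrocytes and astrocytes are known to take up amino acids and transmitters released along axons.

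The 12 libraries held 20299052 to 27214385 reads on genes, and 1 read was worth a normalized read count of 0.812 to 1.19. Deposited values are these normalized read counts, that is, reads per gene divided by a size factor of the library. Myelin genes were abundant at every age: the summed normalized read count of 10 oligodendrocyte markers was in order of age 352603 to 629490.0, 198172 to 259775, 244897 to 336115 and 248666 to 277335. Neuronal markers were present as well, with sums of 176086 to 208300.0 at P18 and 181874 to 188410.0 at 6 months for 10 genes, and no marker of any list was at 0 in all libraries. P18 replicate 3 stood apart from its group, with 9.47% of its reads on Mbp (15.1% and 20.8% in replicates 1 and 2) and a summed count of 42003 for 7 markers of cortical excitatory neurons (28383 in the lowest library of that age).

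Reads on the 72 members made up 0.155%, 0.147% and 0.193% of all reads at P18 and 0.222%, 0.230% and 0.217% at P75. At 6 months the share was 0.401%, 0.331% and 0.352%, and at 24 months 0.315%, 0.349% and 0.372%. No library of the later pair of ages came down to the range of the earlier pair. Of the members, 36 had a mean normalized read count over 100 at all 4 ages and 10 were over 1000 at all ages. In 52 members the mean over the 12 libraries reached 10, the minimum for testing, and 20 stayed under it. Divided by the merged exon length of each gene, high levels over all libraries were those of Slc17a7 with 3488 normalized reads per kilobase, Slc6a11 with 1026, Slc38a2 with 827 and Slc17a6 with 680.1. These are carriers of glutamate into vesicles, of GABA out of the synaptic cleft and of glutamine into cells. Slc3a2, Slc32a1, Slc38a1, Slc38a3 and Slc6a17 were also among the 10 highest.

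**Figure D1:**
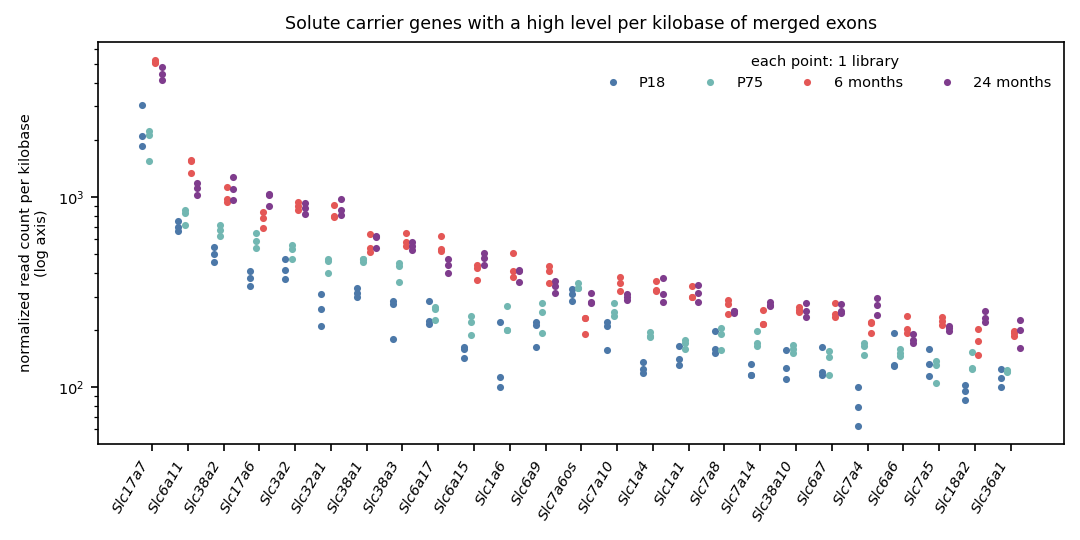
Level of 25 members with high means per kilobase at the 4 ages, in normalized reads per kilobase of merged exons on a log axis, 1 point per library and 1 colour per age. Slc17a7 had the highest level, 3488 over all libraries, and the libraries of P18 and P75 hold the lowest points of most genes shown.

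Each step between ages was tested with limma on log2(normalized read count + 1), and adjusted p-values are Benjamini-Hochberg values over the 14634 genes tested. A gene was called higher or lower at an adjusted p under 0.1, and changes are given as log2 differences ± SE. From P18 to P75, 26 of the 52 tested members (50%) rose and 0 fell, where 25.9% of all genes tested rose and 22.9% fell. A rise of more than 2-fold was called for 2 members, Slc7a4 and Slc6a20a, and a fall of that size for 0, where 2.82% and 1.73% of all genes did so. Both stayed called with any 1 library left out, but neither kept its size: Slc7a4 came down to 0.85 without P18 replicate 1 and was also under 2-fold without P75 replicate 2 or 3, and Slc6a20a came down to 0.77 without P75 replicate 3 and was also under 2-fold without P18 replicate 2. The median change was 0.35 for the members and 0.02 for all genes.

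From P75 to 6 months 38 members (73.1%) rose and 5 (9.62%) fell, where 31.2% of all genes rose and 29.4% fell. The 5 were Slc7a6, Slc7a6os, Slc17a8, Slc38a4 and Slc38a6. More than 2-fold rises numbered 8 and falls 1 (Slc38a4, just past that size) among the members, where the shares of all genes were 5.3% and 4.0%. The median change was 0.65 for the members and 0.01 for all genes. From 6 to 24 months 11 members (21.2%) rose and 2 (3.85%) fell, Slc6a11 and Slc6a17, where 16.6% of all genes rose and 12.7% fell. Only Slc1a5 rose more than 2-fold and 0 members fell so far, beside 1.22% and 0.465% of all genes. The median change was 0.01 for the members and 0.03 for all genes. The count of 11 rested partly on single libraries: it was 6 without 6 months replicate 2 and 7 without 24 months replicate 2, and the count of 2 was 5 without P18 replicate 3 and 1 without 6 months replicate 1, 24 months replicate 1 or 24 months replicate 2.

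Over the whole span from P18 to 24 months, 45 members (86.5%) rose and 1 (Slc38a4) fell, where 34.7% of all genes rose and 34.3% fell. In 23 members the rise passed 2-fold and in 0 the fall did, beside 14.5% and 3.98% of all genes. The median change was 0.97 for the members and -0.01 for all genes. Without P18 replicate 3 the member counts were 44 and 1. The mean was highest at 24 months in 25 tested members, at 6 months in 24, at P75 in 2 and at P18 in 1, and it was lowest at P18 in 39. The 4 comparisons share libraries with one another, so their counts are no independent evidence. Counts for families, enzymes and marker lists below come from few genes and are to be read beside these shares of all genes.

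**Figure D2:**
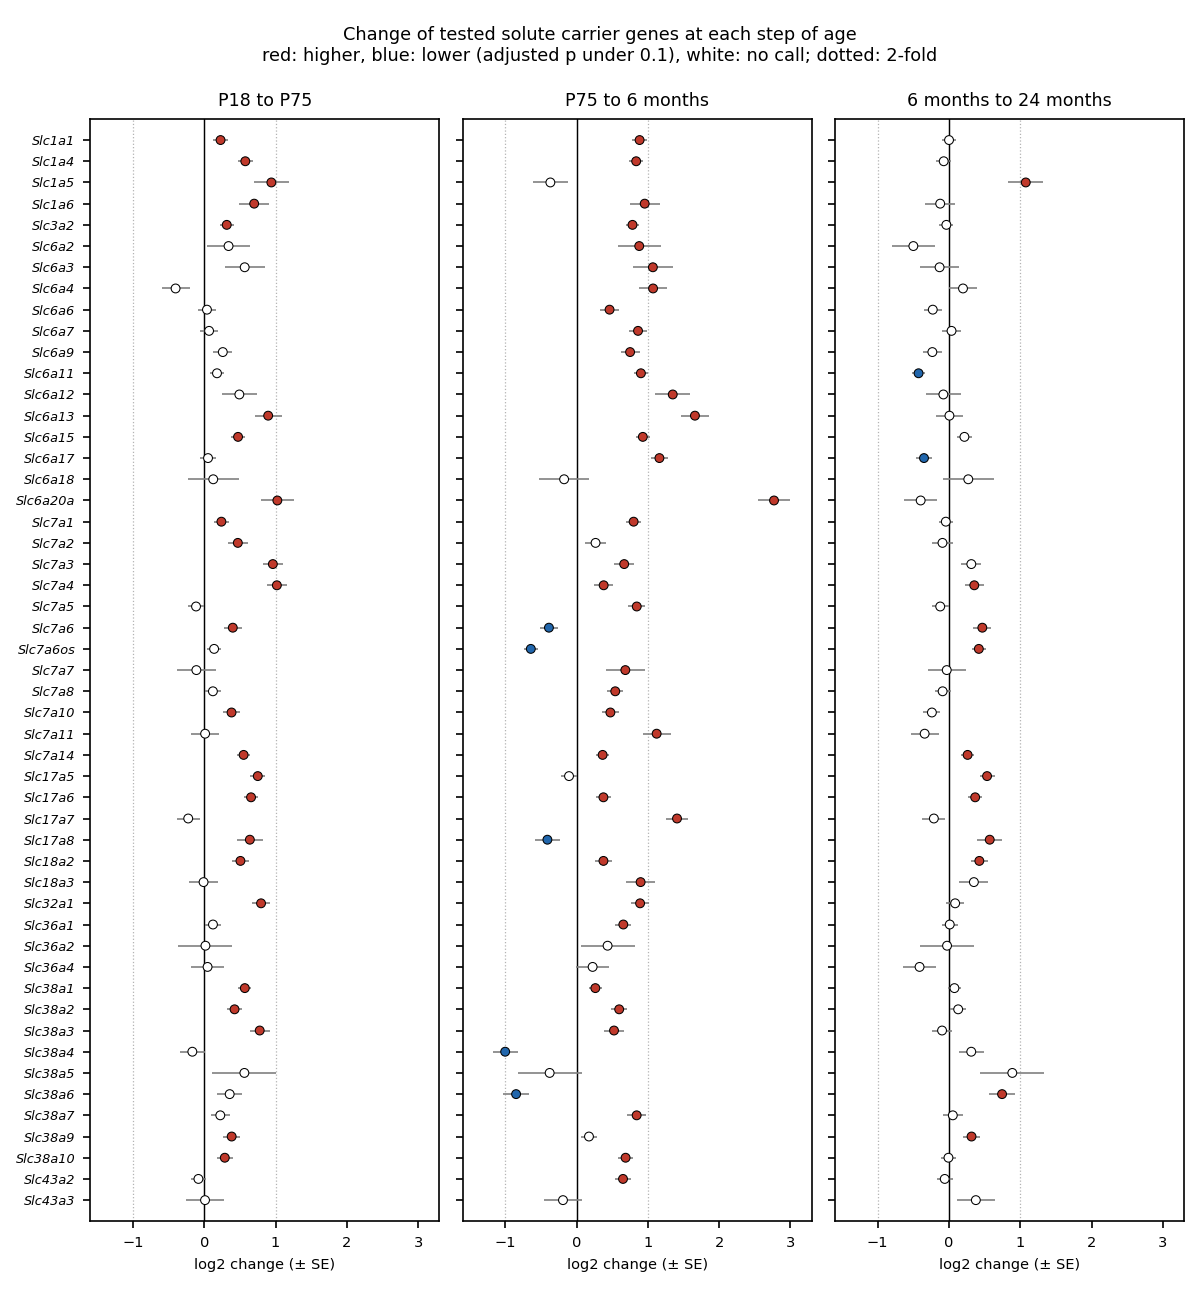
Log2 change of tested members, in family order, in the 3 consecutive steps of age, with bars of ± SE, red points for members called higher, blue for lower and white for no call, and dotted lines at 2-fold. Most points lie right of 0 in the first 2 steps (medians over the 52 tested members 0.35 and 0.65) and around 0 in the last (median 0.01).

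Vesicular carriers of glutamate and GABA included the most abundant member, and all 4 rose from P18 to 24 months. Slc17a7, the vesicular glutamate transporter VGLUT1 of cortical and cerebellar granule neurons, lies on chromosome 7 from 52419291 to 52431508 (plus strand, NCBIM37). Its normalized read count in replicates 1 to 3 was 5436, 6144 and 8966 at P18, 6248, 6575 and 4571 at P75, 15474, 15193 and 14946 at 6 months, and 12168, 13069 and 14219 at 24 months. All libraries at 6 and 24 months were above all at P18 and P75, where P18 replicate 3 was the highest. The rise from P75 to 6 months was 1.41 ± 0.16 (adjusted p = 3.5e-06), while the step from P18 to P75 (-0.22 ± 0.16, adjusted p = 0.28) and that from 6 to 24 months (-0.21 ± 0.16, adjusted p = 0.36) got no call. All 24 months libraries were below those of 6 months, and that step was called lower with only the 2 ages compared. The step from P18 to P75 was called lower without P18 replicate 1. Of 7 markers of cortical excitatory neurons, 2 were higher in that step from P75 to 6 months, 2 lower and 3 without a call. Their summed count was 16946 to 20554 at P75 and 15008 to 18149 at 6 months. Most of it was Nrgn, with 11067 to 14193 and 9366 to 12411. The other 6 markers summed to 5879 to 6361 at P75 and 5642 to 5738 at 6 months. Markers of cerebellar granule neurons also gave 2 higher, 2 lower and 3 without a call, with sums of 13173 to 14065 and 12066 to 13568.

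Slc17a6 encodes VGLUT2, the vesicular glutamate transporter of thalamic and brainstem neurons. Its counts were 1616, 1767 and 1469 at P18, 2325, 2534 and 2794 at P75, 3609, 2961 and 3368 at 6 months, and 3900.2, 4483 and 4420.0 at 24 months. It was called higher in each step, by 0.66 ± 0.10 to P75 (adjusted p = 0.0001), 0.38 ± 0.10 to 6 months (adjusted p = 0.005) and 0.37 ± 0.10 to 24 months (adjusted p = 0.02). Per kilobase, the ratio of Slc17a7 to Slc17a6 was 4.94 to 8.97 at P18, 2.41 to 3.95 at P75, 6.30 to 7.54 at 6 months and 4.28 to 4.73 at 24 months. The P75 libraries had the lowest ratios of these, and the 6 months range overlapped only that of P18. With 3 libraries against 3 an exact permutation test cannot give a p under 0.1, so ratios are given as ranges without a test.

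Slc32a1, the carrier that loads GABA and glycine into vesicles of inhibitory neurons, had 589, 727 and 867 at P18, 1124, 1332 and 1302 at P75, 2543, 2224 and 2200.2 at 6 months, and 2389, 2267 and 2750.1 at 24 months. The groups from P18 to P75 to 6 months did not overlap, with rises of 0.80 ± 0.12 (adjusted p = 0.00011) and 0.89 ± 0.12 (adjusted p = 2.2e-05), and 6 and 24 months did overlap. Its exons share 697 bases with Gm14205 on the opposite strand. Slc17a8, the vesicular glutamate transporter VGLUT3 of scattered neurons, was far lower, with means in order of age of 87.5 ± 18.3, 137 ± 26.1, 102 ± 18.4 and 151 ± 8.46 (mean ± SD, n = 3). It rose by 0.64 ± 0.18 to P75, fell by 0.41 ± 0.18 to 6 months and rose by 0.57 ± 0.18 to 24 months (adjusted p = 0.063 for the fall), and the call of the fall was lost without P75 replicate 2 or 3 or without 6 months replicate 2 or 3, that of the last rise without 6 months replicate 2 or 3 or 24 months replicate 2. The 3 vesicular glutamate carriers together exceeded Slc32a1 per kilobase by 9.73 to 11.05 times at P18, 4.82 to 6.71 times at P75, 6.76 to 7.50 times at 6 months and 5.96 to 6.83 times at 24 months.

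Among carriers for GABA, taurine and betaine of the Slc6 family, Slc6a6, Slc6a11, Slc6a12 and Slc6a13 rose from P75 to 6 months, and Slc6a13 had also risen from P18 to P75. Slc6a11 encodes GAT3, a GABA transporter that sits mostly on astrocytes. Its gene spans bases 114081235 to 114199880 of chromosome 6, plus strand. Slc6a11 counts were 2823, 3055 and 2711 at P18, 3469, 3376 and 2899 at P75, 6408, 6314 and 5478 at 6 months, and 4179, 4816 and 4534 at 24 months. All 6 months libraries were above those of the other ages. Slc6a11 rose by 0.90 ± 0.10 to 6 months (adjusted p = 2e-06) and fell by 0.43 ± 0.10 to 24 months (adjusted p = 0.008). Of 10 astrocyte markers 2 rose and 2 fell from P75 to 6 months, with sums of 72554 to 76796 at P75 and 61989.7 to 70500.0 at 6 months. Much of the sum was Aldoc, a glycolytic aldolase, which fell from a range of 38968 to 44188 to one of 27465 to 32010.2, and the other 9 markers summed to 32099 to 36458 at P75 and 34525 to 38489.8 at 6 months. Their part in the change of Slc6a11 was not tested.

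Slc6a6, the taurine transporter, had 939.5 ± 37.0 at P75 and 1299 ± 140.0 at 6 months (mean ± SD, n = 3) and rose by 0.46 ± 0.13 (adjusted p = 0.006). Larger changes were seen in Slc6a13 and Slc6a12, a pair of neighbours on the plus strand of chromosome 6 (121250245 to 121287751 and 121293094 to 121315793). Slc6a13 encodes GAT2, a GABA and taurine carrier known from the leptomeninges, liver and kidney. Its counts were 68.9, 63.3 and 54.2 at P18, 151, 79.7 and 129 at P75, 377, 367 and 363 at 6 months, and 304, 385 and 434 at 24 months. No library at 6 or 24 months overlapped those at P75, and none at P75 those at P18. The rise was 0.90 ± 0.19 to P75 (adjusted p = 0.001), 1.66 ± 0.19 to 6 months (adjusted p = 4e-06) and 0.01 ± 0.19 without a call to 24 months. Slc6a12, the betaine and GABA transporter BGT1, had 27.3, 20.3 and 19.1 at P18, 29.1, 39.9 and 26.5 at P75, 97.5, 79.9 and 69.1 at 6 months, and 54.5, 104 and 80.5 at 24 months. It rose by 1.35 ± 0.24 from P75 to 6 months (adjusted p = 0.00024).

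Slc6a20a, a carrier of proline and other imino acids, showed the largest change of the 52 tested members in any step. It lies on the minus strand of chromosome 9 from 123545240 to 123588003. Its counts were 15.4, 10.2 and 15.1 at P18, 28.1, 19.5 and 40.9 at P75, 201, 194 and 199 at 6 months, and 149.6, 167 and 136 at 24 months. The rise from P75 to 6 months was 2.77 ± 0.23 (adjusted p = 2.1e-07), a fold of 6.82 on the log2(normalized read count + 1) scale, after a rise of 1.03 ± 0.23 to P75 (adjusted p = 0.002). The step to 24 months, -0.40 ± 0.23, got no call (adjusted p = 0.23), but was called lower with edgeR, with DESeq2 and with only the 2 ages compared. Its neighbour Slc6a20b, a close paralog, stayed at 0 to 4.01, and reads that match both copies could have been lost or split in the counting. Exons of Slc6a20a share 415 bases with Gm17120 and 22 with Ccr9 on the opposite strand, and whether the counting used strand is not given in the sources used here.

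Markers of the brain's borders were counted beside Slc6a12, Slc6a13 and Slc6a20a. From P18 to P75, 5 of 10 meningeal fibroblast markers rose and 3 fell, and 6 of 10 choroid plexus markers rose and 1 fell. From P75 to 6 months 6 of 10 meningeal fibroblast markers rose and 0 fell, Igf2, Islr and Ogn more than 2-fold, and their summed count went from 3108 to 3915 at P75 to 6036 to 6296 at 6 months. It was 2444 to 3469.8 at P18 and 5812 to 6904 at 24 months. In the same step 9 of 10 choroid plexus markers rose and 0 fell, with summed counts of 23865 to 29249 at P75 and 28135 to 32459.9 at 6 months after 12857 to 14926 at P18, and 43382 to 47994 at 24 months. Most of this sum was Ttr, the transthyretin gene, with 22809 to 28194 at P75 and 26426 to 30793 at 6 months. Without it, 9 markers summed to 579 to 760.4 at P18, 1008 to 1056 at P75, 1549 to 1709 at 6 months and 1731 to 1925 at 24 months, with the libraries of P75 and 6 months apart. No marker of either list was at 0 in all libraries. The part of these tissues in the change of the 3 carriers was not tested.

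**Figure D3:**
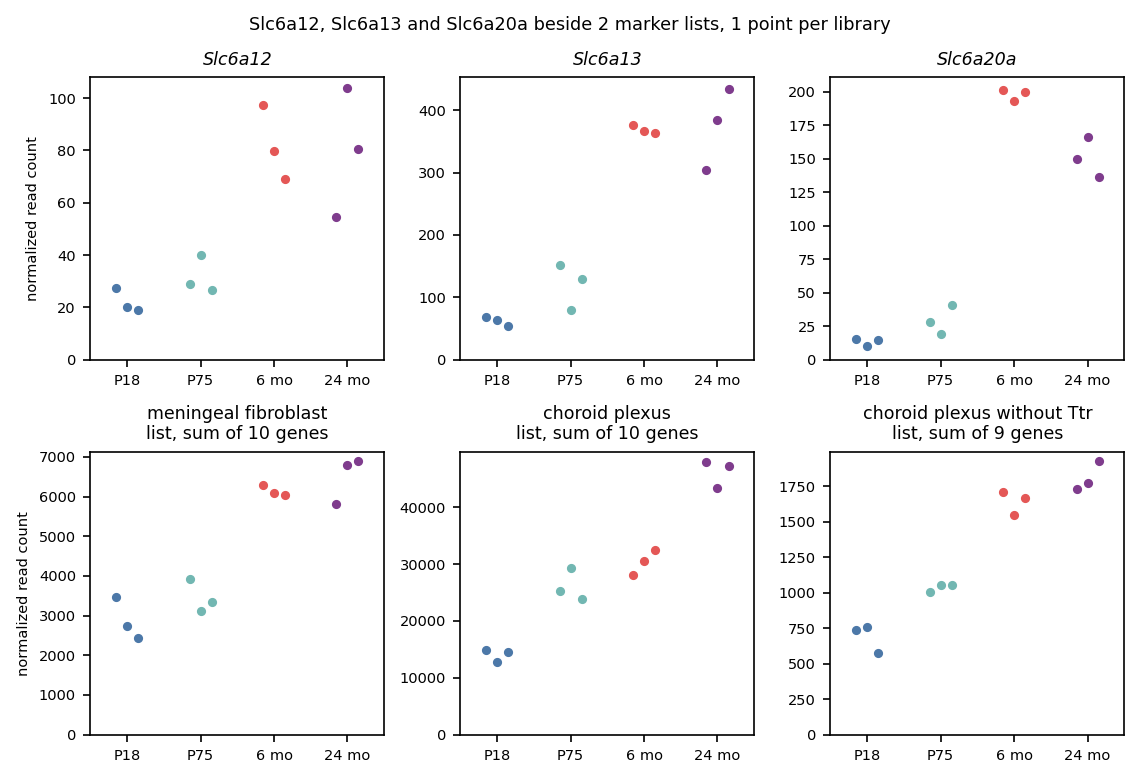
Normalized read counts of Slc6a20a, Slc6a13 and Slc6a12 and the summed counts of meningeal fibroblast and choroid plexus markers in the 12 libraries, 1 point per library, each panel with its own axis from 0. The choroid plexus list is shown whole and without Ttr. The 3 carriers, the meningeal sum and the sum without Ttr step up between P75 and 6 months, and the whole choroid plexus sum goes from 12857 in the lowest library of P18 to 47994 in the highest of 24 months.

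Glycine and proline carriers of the Slc6 family rose in all 3 tested members from P75 to 6 months. Slc6a9 encodes GLYT1, the glycine transporter of astrocytes and some neurons. Its counts were 1089.7, 1139 and 839 at P18, 1275, 1421 and 988 at P75, 2094, 2234 and 1824 at 6 months, and 1603, 1761 and 1859.7 at 24 months. The libraries at 6 and 24 months were all above those at P18 and P75, with a rise of 0.75 ± 0.13 from P75 to 6 months (adjusted p = 0.00022), and its exons overlap Ccdc24 by 1429 bases on the opposite strand. Slc6a7, the proline transporter of glutamatergic terminals, had 386, 403 and 541 at P18, 521, 479 and 389 at P75, 924, 783 and 809 at 6 months, and 821, 842 and 911 at 24 months. It rose by 0.86 ± 0.13 from P75 to 6 months (adjusted p = 4.7e-05), again without overlap. Slc6a5, the GLYT2 transporter of spinal and brainstem glycinergic neurons, was too low to be tested, at 0 to 18.7.

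The 3 plasma membrane carriers of monoamines were low and rose from P75 to 6 months with 0 calls in the other 2 consecutive steps. Slc6a3, the dopamine transporter, had 119, 54.2 and 163 at P18, 112, 168 and 184 at P75, 342, 283 and 334 at 6 months, and 273, 278 and 323 at 24 months. P18 replicate 2 was the lowest, and all libraries at 6 and 24 months exceeded those before. The rise from P75 to 6 months was 1.07 ± 0.28 (adjusted p = 0.004), and 0.86 and still called without P75 replicate 1. Slc6a4, the serotonin transporter, had 76.0, 93.8 and 102 at P18, 65.1, 71.4 and 67.4 at P75, 206, 119.8 and 121 at 6 months, and 156, 145 and 199.9 at 24 months. It rose by 1.07 ± 0.20 (adjusted p = 0.00027), with 6 months replicate 1 above the other two, and without that library the change was 0.81 and still called. Slc6a2, the noradrenaline transporter, ranged from 13.6 to 73.9 over the 12 libraries, and its rise of 0.88 ± 0.30 (adjusted p = 0.022) was lost without 6 months replicate 1.

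Slc18a2 encodes VMAT2, which fills vesicles with monoamines. Its counts were 389, 362 and 325 at P18, 474, 478 and 581 at P75, 768, 565 and 667 at 6 months, and 834, 956 and 879 at 24 months. It rose in each step, by 0.51 ± 0.12 (adjusted p = 0.003), 0.38 ± 0.12 (adjusted p = 0.013) and 0.43 ± 0.12 (adjusted p = 0.021), the last lost without 6 months replicate 2. Slc18a3, the vesicular acetylcholine transporter, had 52.3, 52.0 and 32.1 at P18, 38.1, 56.6 and 39.8 at P75, 82.9, 81.7 and 84.7 at 6 months, and 111, 93.0 and 116 at 24 months. Its rise from P75 to 6 months was 0.90 ± 0.20 (adjusted p = 0.002), and the 3 libraries at 6 months lay within 81.7 to 84.7. Chat, the acetylcholine-synthesizing enzyme whose gene encloses Slc18a3, rose by 2.29 ± 0.33 in that step (adjusted p = 3.4e-05). Of 10 genes for the making, breakdown and uptake of monoamines and acetylcholine, 6 rose, 0 fell and 4 got no call from P75 to 6 months. Besides Chat, Dbh, which turns dopamine into noradrenaline, rose more than 2-fold (1.09 ± 0.27, adjusted p = 0.003). In the step from 6 to 24 months 0 of the 10 were called. From P18 to 24 months the choline transporter gene Slc5a7 rose by 1.86 ± 0.17 (adjusted p = 1e-07) and Ache, which breaks acetylcholine down, by 1.08 ± 0.15 (adjusted p = 7.6e-06), among 5 higher and 2 lower.

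Among the other Slc6 carriers, Slc6a17 and Slc6a15 of neurons were abundant. Slc6a17, a carrier of neutral amino acids on synaptic vesicles, had 2215, 2304 and 2937 at P18, 2649, 2733 and 2314 at P75, 6454, 5456 and 5329.7 at 6 months, and 4085, 4544 and 4875 at 24 months. All 6 months libraries were above all others, with a rise of 1.16 ± 0.12 to 6 months (adjusted p = 1.1e-06) and a fall of 0.35 ± 0.12 to 24 months (adjusted p = 0.043) that was lost without 6 months replicate 1, 24 months replicate 1 or 24 months replicate 2. Slc6a15, a plasma membrane carrier of branched-chain amino acids and proline, had 586, 574 and 512 at P18, 797, 683 and 850.1 at P75, 1580.2, 1324 and 1529 at 6 months, and 1732, 1827 and 1587 at 24 months. It rose by 0.47 ± 0.10 to P75 (adjusted p = 0.001) and 0.93 ± 0.10 to 6 months (adjusted p = 2.4e-06), and the 24 months libraries were all above those of 6 months, without a call (0.22 ± 0.10, adjusted p = 0.14). Slc6a18, a kidney carrier, ranged from 6.50 to 16.9 with no call in any comparison.

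**Figure D4:**
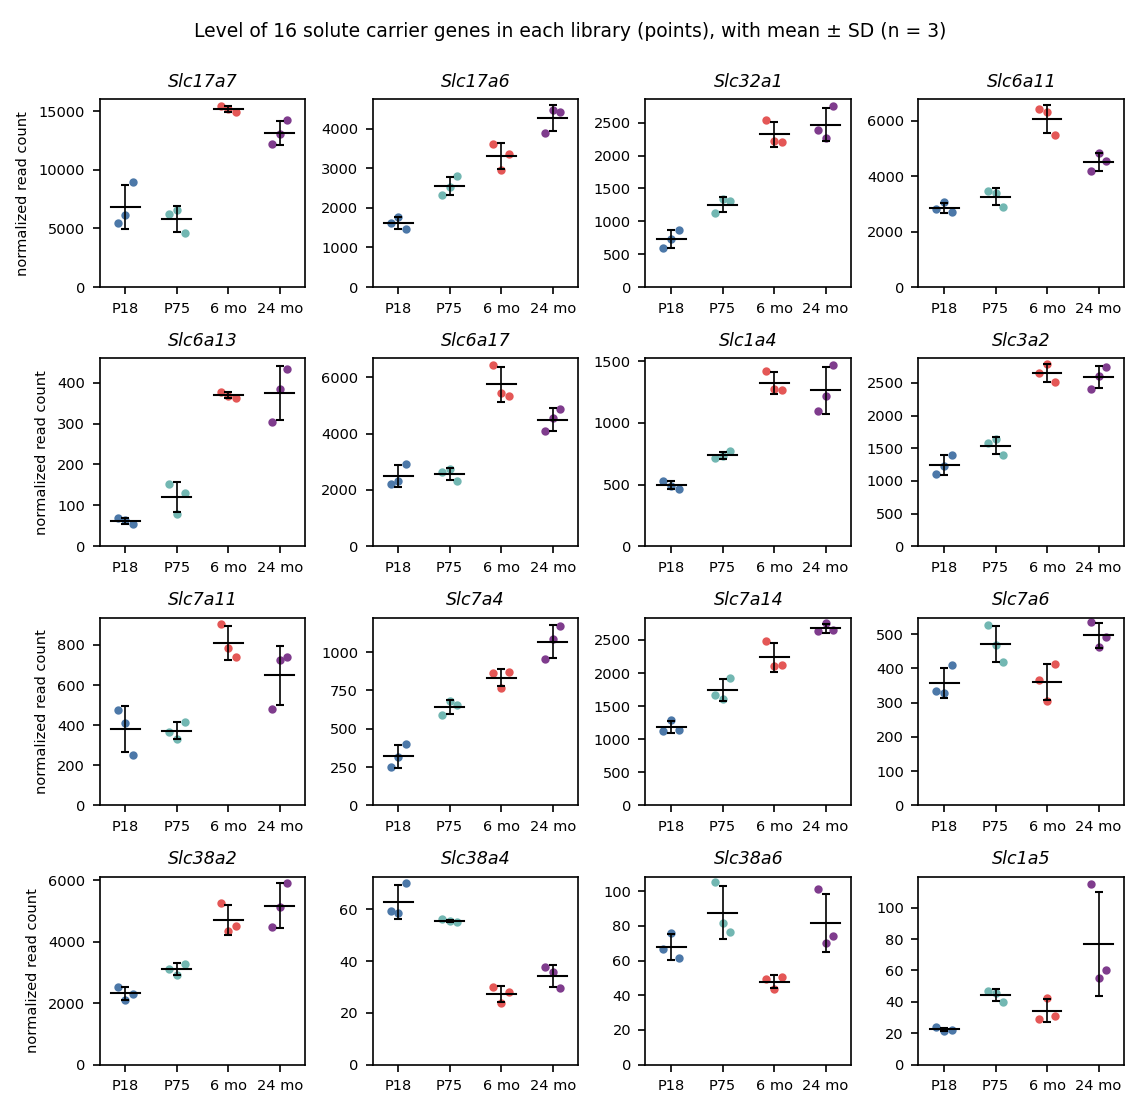
Normalized read counts of selected members in each of the 12 libraries, 1 point per library with the mean and SD of the 3 libraries per age, each panel with its own axis from 0. Slc17a7 and Slc6a17 step up between P75 and 6 months, while Slc38a4 steps down and Slc38a6 and Slc7a6 dip at 6 months.

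Glutamate and neutral amino acid carriers of the Slc1 family were higher at 24 months than at P18 in all 4 tested members, each by more than 2-fold. Slc1a1 encodes EAAC1, the glutamate and cysteine transporter of neurons. Its counts were 804, 864 and 1014 at P18, 1056, 1091 and 986 at P75, 2107, 1842 and 1842 at 6 months, and 1741, 1939.7 and 2121 at 24 months, and its exons share 185 bases with 4430402I18Rik on the opposite strand. The main step was from P75 to 6 months, by 0.88 ± 0.10 (adjusted p = 3.6e-06), and the smaller rise to P75 (0.23 ± 0.10, adjusted p = 0.08) was lost with edgeR, with only the 2 ages compared, and without P18 replicate 1 or 2, P75 replicate 1 or 2 or 24 months replicate 2. Slc1a6 encodes EAAT4, the glutamate transporter of Purkinje cells. Its counts were 209, 237 and 458 at P18, 419.9, 557 and 419 at P75, 1056, 850.3 and 798 at 6 months, and 746, 867 and 857 at 24 months. P18 replicate 3 lay within the range of P75, whereas the rise of 0.96 ± 0.21 to 6 months (adjusted p = 0.001) separated the groups. Purkinje cell markers gave 6 of 7 higher and 0 lower in that step, with sums of 36934 to 38995 at P75, 45405 to 52445 at 6 months and 40809 to 45448 at 24 months, after 26583 to 29686 at P18. The most abundant was Gad1, which was also counted among the genes that make or degrade GABA and glutamate. Leaving Gad1 out, the sums ran from 22452 to 25362 in the P75 libraries and from 29482 to 35743 in those of 6 months. Pcp2 did not rise, with 1634 to 1921 in the P75 libraries against 1301 to 2087 in the 6 months libraries. The part of Purkinje cells in the change of Slc1a6 was not tested.

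Slc1a4 encodes ASCT1, which exchanges alanine, serine and cysteine. Its counts were 530.0, 492 and 465 at P18, 718, 728 and 771 at P75, 1422, 1272 and 1267 at 6 months, and 1097, 1219 and 1471 at 24 months. The groups of P18, P75 and 6 months did not overlap, with rises of 0.58 ± 0.10 (adjusted p = 0.00033) and 0.84 ± 0.10 (adjusted p = 6.8e-06). Slc1a5, the glutamine exchanger ASCT2, was low, with 23.8, 21.5 and 22.1 at P18, 47.1, 45.4 and 39.8 at P75, 29.2, 42.6 and 31.1 at 6 months, and 115, 55.1 and 60.2 at 24 months. It rose by 1.08 ± 0.25 from 6 to 24 months (adjusted p = 0.009). 24 months replicate 1 lay far above the other two, and without it the change was 0.75, still called but not over 2-fold, and it was also under 2-fold without 6 months replicate 1.

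Heavy and light chains form the exchangers for large neutral amino acids and cystine. Slc3a2, the heavy chain 4F2hc or CD98, lies on the minus strand of chromosome 19 from 8781372 to 8797859. Its counts were 1102, 1223 and 1402 at P18, 1575, 1649 and 1403 at P75, 2649, 2792 and 2518 at 6 months, and 2409, 2607 and 2747 at 24 months. It rose by 0.32 ± 0.10 to P75 (adjusted p = 0.016) and 0.78 ± 0.10 to 6 months (adjusted p = 7.7e-06), and the 24 months range overlapped that of 6 months. Per kilobase, the ratio of Slc3a2 to the sum of its 6 partners Slc7a5, Slc7a6, Slc7a7, Slc7a8, Slc7a10 and Slc7a11 was 0.597 to 0.725 at P18, 0.680 to 0.742 at P75, 0.838 to 0.905 at 6 months and 0.861 to 0.958 at 24 months. Both later ages lay above both earlier ages. Slc3a1, the heavy chain of the kidney cystine exchanger, stayed at 0 to 5.01.

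Of the light chains 5 of 6 tested members rose from P75 to 6 months, and Slc7a6 fell. Shares of all genes in that step were 31.2% higher and 29.4% lower. Slc7a11 encodes xCT, the chain that imports cystine for glutathione in exchange for glutamate. Its counts were 476, 411 and 252 at P18, 365, 333 and 418 at P75, 903, 786 and 741 at 6 months, and 480.5, 726 and 741 at 24 months. All 6 months libraries exceeded those of P18 and P75, while 24 months replicate 1 lay close to the highest of P18. The rise to 6 months was 1.12 ± 0.20 (adjusted p = 0.00019), and the step to 24 months (-0.34 ± 0.20, adjusted p = 0.23) got no call. Slc7a8, the LAT2 chain for neutral amino acids, had 644, 610.1 and 792 at P18, 766, 826 and 635 at P75, 1156, 1101 and 975 at 6 months, and 1013, 997 and 1020.1 at 24 months. It rose by 0.54 ± 0.11 (adjusted p = 0.00078). Slc7a10, the astrocytic and neuronal Asc-1 chain for serine and glycine, had 519, 546 and 385 at P18, 581, 611 and 682 at P75, 872, 940.0 and 793 at 6 months, and 705, 761 and 735 at 24 months. It rose by 0.38 ± 0.12 to P75 (adjusted p = 0.016) and 0.47 ± 0.12 to 6 months (adjusted p = 0.003), and its exons share 726 bases with Lrp3 on the opposite strand. Slc7a5, the LAT1 chain of the blood-brain barrier, had 438 ± 58.3 at P75 and 782 ± 40.2 at 6 months (mean ± SD, n = 3) and rose by 0.84 ± 0.12 (adjusted p = 2.4e-05).

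Slc7a6, the y+LAT2 chain that exchanges arginine for glutamine, went the other way in that step. Its levels in order of age were 357 ± 44.8, 471 ± 53.1, 361 ± 52.8 and 497 ± 37.0 (mean ± SD, n = 3). It rose by 0.40 ± 0.13, fell by 0.39 ± 0.13 and rose by 0.47 ± 0.13, each called (adjusted p = 0.016 for the fall). Its neighbour Slc7a6os on the opposite strand, with no shared exon bases, fell by 0.64 ± 0.10 to 6 months (adjusted p = 6.2e-05) and rose by 0.42 ± 0.10 to 24 months (adjusted p = 0.010). Slc7a7, the y+LAT1 chain of macrophages and epithelia, ranged from 14.3 to 36.1, and its rise to 6 months (0.68 ± 0.27, adjusted p = 0.042) was lost without P75 replicate 2, 6 months replicate 1 or 6 months replicate 2. Its exons share 226 bases with Oxa1l on the opposite strand.

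Slc7a11, Slc1a4 and Slc3a2 are known targets of the amino acid response, in which the factor ATF4 binds a short element in promoters when amino acids run low. Their promoters are printed to show where the core of that element occurs in these members. All 3 rose from P75 to 6 months, as did 38 of the 52 tested members, and a part of ATF4 in this was not tested. The windows run 5′ to 3′ from 250 bases before to 50 bases after the RefSeq start in GRCm38.p6, at chr3:50443564-50443863 for Slc7a11, chr11:20332664-20332963 for Slc1a4 and chr19:8713848-8714147 for Slc3a2, all on the minus strand. Capitals mark matches to the core TGATGNAA on either strand.
Slc7a11: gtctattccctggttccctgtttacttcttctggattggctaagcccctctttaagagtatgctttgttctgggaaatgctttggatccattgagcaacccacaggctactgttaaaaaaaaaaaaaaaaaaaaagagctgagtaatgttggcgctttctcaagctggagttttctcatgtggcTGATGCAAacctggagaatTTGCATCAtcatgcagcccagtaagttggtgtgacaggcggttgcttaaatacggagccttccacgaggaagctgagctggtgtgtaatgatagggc
Slc1a4: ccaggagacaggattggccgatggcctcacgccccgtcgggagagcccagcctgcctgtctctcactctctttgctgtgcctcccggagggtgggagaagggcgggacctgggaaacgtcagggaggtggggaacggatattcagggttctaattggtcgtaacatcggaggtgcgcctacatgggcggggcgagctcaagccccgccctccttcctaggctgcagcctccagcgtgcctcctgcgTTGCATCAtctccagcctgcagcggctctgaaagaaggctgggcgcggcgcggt
Slc3a2: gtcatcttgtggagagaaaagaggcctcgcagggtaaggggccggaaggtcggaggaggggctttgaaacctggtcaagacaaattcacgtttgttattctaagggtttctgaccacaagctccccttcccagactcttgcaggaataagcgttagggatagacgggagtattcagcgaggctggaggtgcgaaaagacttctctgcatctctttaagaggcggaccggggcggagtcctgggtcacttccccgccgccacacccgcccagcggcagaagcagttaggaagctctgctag
The Slc7a11 window held 2 matches, TGATGCAA at -66 and TTGCATCA at -47 from the start, that of Slc1a4 held TTGCATCA at -4, and that of Slc3a2 had no match to these letters. Windows of RefSeq were matched to 52 members by symbol, 76 windows in all. The core occurred in 5 of the 76 windows (6.58%), those of Slc1a4, Slc7a11, Slc7a7 and Slc17a1, and in 1304 of 32851 windows of all genes (3.97%). The antioxidant response core TGACNNNGC, searched on both strands, was found in 11 of 76 windows (14.5%), of 9 members, and in 12.4% of all windows, and it can overlap the other core. A match is a description of letters, and binding was not measured.

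Atf4 itself was called lower at P75 and not called after that, with changes of -0.23 ± 0.09 to P75 (adjusted p = 0.061), -0.09 ± 0.09 to 6 months (adjusted p = 0.43) and 0.00 ± 0.09 to 24 months (adjusted p = 0.98). Of 10 genes of the amino acid stress response 3 rose, 4 fell and 3 got no call from P75 to 6 months. Sesn2, a sensor of leucine, rose by 2.25 ± 0.17 (adjusted p = 1.4e-07), and Cebpb, a stress-induced transcription factor, changed by -1.57 ± 0.19 (adjusted p = 6.4e-06). From P18 to P75 the counts were 1 higher and 3 lower, with Atf3 at -1.06 ± 0.28 (adjusted p = 0.006), and from 6 to 24 months 3 higher and 2 lower. Cystine imported by Slc7a11 is used in glutathione synthesis. Of 6 genes of glutathione synthesis and breakdown, 3 rose and 2 fell from P75 to 6 months. Gclc, the catalytic subunit of the rate-limiting ligase, rose by 1.36 ± 0.10 (adjusted p = 9.3e-08) and the aminopeptidase gene Anpep by 1.17 ± 0.26 (adjusted p = 0.001). The synthesis genes Gclm and Gss went the other way, with means of 592 and 706 at P75 and of 477 and 575 at 6 months. Of the 6 genes, 4 rose and 2 fell from P18 to 24 months. Anpep was at 1.59 ± 0.26 (adjusted p = 5.8e-05), Ggt1 at 1.13 ± 0.28 (adjusted p = 0.002) and Ggt7 at 1.55 ± 0.10 (adjusted p = 3.6e-09), the last 2 being gamma-glutamyltransferase genes. Over the same span the mean of Gclm went from 888 to 516 and that of Gss from 1087 to 554.

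Cationic amino acid carriers rose in all 5 members from P18 to P75 and in 4 of 5 from P75 to 6 months. The shares of all genes that rose were 25.9% and 31.2%. Slc7a14, a lysosomal carrier of neurons, had 1129, 1288 and 1134 at P18, 1675, 1614 and 1927 at P75, 2491, 2113 and 2115 at 6 months, and 2627, 2754 and 2649 at 24 months. The groups of P18, P75, 6 months and 24 months did not overlap. The rises were 0.55 ± 0.09 (adjusted p = 0.00021), 0.37 ± 0.09 (adjusted p = 0.003) and 0.26 ± 0.09 (adjusted p = 0.057), the last lost after scaling to the same total and without 6 months replicate 2 or 3 or any library of 24 months. Slc7a4, a relative of the cationic carriers, had 249.5, 313 and 401 at P18, 587, 678 and 658 at P75, 861, 769 and 872 at 6 months, and 953, 1083 and 1170.0 at 24 months. It rose by 1.02 ± 0.14 to P75 (adjusted p = 3.1e-05), which passed 2-fold, by 0.38 ± 0.14 to 6 months (adjusted p = 0.027) and by 0.35 ± 0.14 to 24 months (adjusted p = 0.075, lost after scaling to the same total and without 6 months replicate 1 or 2 or 24 months replicate 2 or 3), and its exons share 554 bases with P2rx6 on the opposite strand. Slc7a3, the arginine and lysine carrier CAT3 of neurons, had 99.8, 104 and 112 at P18, 180.4, 225 and 216 at P75, 371, 265 and 358 at 6 months, and 381, 385 and 462 at 24 months. It rose by 0.96 ± 0.14 (adjusted p = 5.7e-05) and 0.67 ± 0.14 (adjusted p = 0.00074) in the first 2 steps. The widely expressed CAT1 gene Slc7a1 rose by 0.80 ± 0.10 to 6 months (adjusted p = 9.3e-06), from 385 ± 26.9 to 671 ± 66.4 (mean ± SD, n = 3). The CAT2 gene Slc7a2 rose by 0.47 ± 0.14 to P75 (adjusted p = 0.014), and its step to 6 months (0.27 ± 0.14, adjusted p = 0.13) got no call. Its exons share 635 bases with Gm17475 on the opposite strand.

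Among glutamine and small neutral amino acid carriers of the Slc38 family, 5 of 9 tested members rose from P75 to 6 months, 2 fell and 2 got no call. In that step 31.2% of all genes rose and 29.4% fell. Slc38a1, Slc38a2 and Slc38a4 form a cluster on the minus strand of chromosome 15, Slc38a1 from 96401849 to 96473344, Slc38a2 from 96517825 to 96530129 and Slc38a4 from 96825254 to 96886387. Slc38a1 encodes SNAT1, which supplies neurons with glutamine. Its counts were 2627, 2513 and 2796 at P18, 3987, 3836 and 3947 at P75, 5342, 4545 and 4295 at 6 months, and 4506, 5163 and 5254 at 24 months. It rose by 0.57 ± 0.09 to P75 (adjusted p = 0.00018), without overlap, and by 0.26 ± 0.09 to 6 months (adjusted p = 0.026), which was lost without 6 months replicate 1 and after scaling to the same total. Slc38a2, the widely expressed SNAT2, had 2535, 2102 and 2314 at P18, 3127, 2903 and 3292 at P75, 5252, 4362 and 4518 at 6 months, and 4465, 5118 and 5922 at 24 months. It rose by 0.43 ± 0.11 (adjusted p = 0.005) and 0.60 ± 0.11 (adjusted p = 0.00028) in these steps, again with groups apart. The ratio of Slc38a2 to Slc38a1 per kilobase was 1.50 to 1.75 at P18, 1.37 to 1.51 at P75, 1.74 to 1.91 at 6 months and 1.80 to 2.05 at 24 months.

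Slc38a4, an imprinted gene for a neutral and cationic amino acid carrier of liver and placenta, ran against its neighbours. Its counts were 59.4, 58.8 and 70.3 at P18, 56.1, 55.6 and 55.3 at P75, 30.1, 24.0 and 28.2 at 6 months, and 37.6, 35.7 and 29.6 at 24 months. All libraries of the later pair of ages were below those of the earlier pair. It fell by 1.002 ± 0.18 from P75 to 6 months (adjusted p = 0.0002) and by 0.86 ± 0.18 from P18 to 24 months (adjusted p = 0.0005), the one member with a fall called over the whole span. The former barely passed 2-fold, and it decreased by 0.91 without 6 months replicate 2 and just under 2-fold without P75 replicate 1, still called in both cases. Slc38a6, an orphan of the family, had 87.7 ± 15.4 at P75, 47.9 ± 3.84 at 6 months and 81.8 ± 16.8 at 24 months (mean ± SD, n = 3). It fell by 0.85 ± 0.18 (adjusted p = 0.00086) and rose by 0.74 ± 0.18 (adjusted p = 0.011).

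Slc38a3 encodes SNAT3, by which astrocytes release glutamine. Its counts were 957, 928 and 604 at P18, 1520.2, 1463 and 1217 at P75, 1964, 2189 and 1876 at 6 months, and 1872, 1779.7 and 1978 at 24 months. P18 replicate 3 was the lowest library, and the groups of P18, P75 and 6 months did not overlap, with rises of 0.78 ± 0.14 (adjusted p = 0.0004) and 0.52 ± 0.14 (adjusted p = 0.005). Slc38a7, the lysosomal glutamine carrier, had 168, 203 and 252 at P18, 238, 263 and 220.0 at P75, 435, 415 and 442 at 6 months, and 395, 443 and 509 at 24 months. It rose by 0.84 ± 0.14 from P75 to 6 months (adjusted p = 9e-05). Slc38a9, the lysosomal arginine sensor, rose by 0.39 ± 0.11 to P75 (adjusted p = 0.013) and by 0.32 ± 0.11 from 6 to 24 months (adjusted p = 0.062), the latter lost after scaling to the same total and without 6 months replicate 2 or 3 or 24 months replicate 2 or 3. Slc38a10 rose by 0.69 ± 0.11 from P75 to 6 months (adjusted p = 7.3e-05) to 1634 ± 52.9 (mean ± SD, n = 3), and its exons share 367 bases with Gm11769 on the opposite strand. Slc38a5, the glutamine carrier SNAT5, ranged from 4.02 to 25.9, and was called only from P18 to 24 months (1.07 ± 0.45, adjusted p = 0.047), which was lost without P18 replicate 3 or 24 months replicate 2 or 3.

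Of the 3 tested proton-coupled carriers of the Slc36 family, 1 was called in any comparison. Slc36a1 encodes PAT1, which exports small amino acids from lysosomes. Its counts were 566, 627 and 701 at P18, 688, 675 and 691 at P75, 1107, 1048 and 1083 at 6 months, and 901, 1127 and 1266 at 24 months. It rose by 0.66 ± 0.11 from P75 to 6 months (adjusted p = 0.00013), and 24 months replicate 1 lay below the 6 months range. Slc36a4 had 42.8, 50.9 and 76.3 at P18, 73.2, 44.5 and 56.4 at P75, 75.6, 64.8 and 60.3 at 6 months, and 62.4, 45.4 and 43.5 at 24 months. Its groups overlapped throughout and it got no call in any comparison, with 0.22 ± 0.23 from P75 to 6 months (adjusted p = 0.43). Slc36a2, a carrier of glycine and proline in kidney, ranged from 5.56 to 15.1 without a call. Slc17a5, the sialin that exports sialic acid from lysosomes, had 202, 199 and 242 at P18, 346, 358 and 377 at P75, 339, 326 and 339 at 6 months, and 534, 492 and 433 at 24 months. It rose by 0.75 ± 0.11 to P75 (adjusted p = 4.9e-05), got no call to 6 months (-0.11 ± 0.11, adjusted p = 0.41) and rose by 0.53 ± 0.11 to 24 months (adjusted p = 0.004). Microglial markers had summed counts in order of age of 5377 to 6299, 7766 to 8733, 9528 to 10937 and 13832 to 16782. Of the 10, 7 rose in the first step, 6 in the step between and 5 in the last. The only fall called in these steps was that of Aif1, by more than 2-fold from P75 to 6 months. The part of microglia in the change of Slc17a5 was not tested. Of 8 tested genes of lysosomal amino acid sensing, such as those for the Rag GTPases and mTOR, 3 rose and 2 fell from P75 to 6 months and 0 rose and 1 fell from 6 to 24 months, none by more than 2-fold.

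Slc43a2, the LAT4 carrier of branched-chain amino acids, had 579.9, 617 and 540.4 at P18, 566, 598 and 482 at P75, 937, 867 and 779 at 6 months, and 731, 826 and 927 at 24 months. It rose by 0.65 ± 0.11 from P75 to 6 months (adjusted p = 0.00013), without overlap. Slc43a3, which carries purine bases, had 24.9, 29.4 and 34.1 at P18, 29.1, 20.4 and 43.1 at P75, 31.7, 27.5 and 19.5 at 6 months, and 33.7, 29.2 and 38.9 at 24 months. Its groups overlapped and it got no call in any comparison. Enzymes that break down branched-chain amino acids gave other directions: of 9 genes 1 rose and 5 fell from P18 to P75, 2 rose and 3 fell from P75 to 6 months, and 0 rose and 6 fell from P18 to 24 months.

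Enzymes of the transmitters themselves likewise gave mixed directions. Of 10 genes that make or degrade GABA and glutamate, 2 rose and 2 fell from P18 to P75, 4 rose and 1 fell from P75 to 6 months, and 1 rose and 5 fell from 6 to 24 months. Got2, the mitochondrial aspartate aminotransferase, rose by 1.34 ± 0.09 from P75 to 6 months (adjusted p = 2.8e-08), the one gene of this list past 2-fold. From P18 to 24 months 3 of these 10 rose and 5 fell, where 34.7% of all genes rose and 34.3% fell. Of 10 enzyme genes of glycine and serine metabolism 0 rose and 2 fell to P75, 3 rose and 2 fell to 6 months, and 0 rose and 5 fell from P18 to 24 months. Srr, the racemase that makes D-serine, changed by -1.05 ± 0.08 over that span (adjusted p = 1.5e-08).

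Of 10 neuronal markers 2 rose and 6 fell from P18 to P75, where 25.9% of all genes rose and 22.9% fell. From P75 to 6 months 7 of the 10 rose and 2 fell, Syt1 more than 2-fold. Their summed count was 193005 to 220022 at P75 and 181874 to 188410.0 at 6 months. Most of it was Snap25, which fell from a range of 130496 to 150174 to one of 87058 to 89430.3, while the other 9 markers summed to 57854 to 69848 at P75 and 92444 to 101353 at 6 months. From 6 to 24 months 0 rose and 4 fell. Oligodendrocyte markers gave 0 higher and 7 lower from P18 to P75 and 2 higher and 0 lower from P75 to 6 months. The part of a shifting makeup of the fraction in the changes of the carriers was not tested.

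The 20 members under the minimum for testing included many carriers known from kidney, gut and liver. Slc7a9, Slc7a12, Slc17a1, Slc17a4 and Slc36a3 had 0 reads in all 12 libraries, which allows a normalized read count of up to 2.44 to 3.56 per library (3 reads, for counting error only). Slc17a1 to Slc17a4, phosphate and urate carriers, form a cluster on chromosome 13, and Slc17a2 and Slc17a3 had 0 to 0.99 and 0 to 2.21. Slc6a14, Slc6a19, Slc7a13, Slc7a15 and Slc38a11 ranged from 0 to 2.21, 0 to 6.49, 0 to 0.93, 0 to 3.96 and 0 to 4.02 in that order. Of the others, Slc1a7, the retinal glutamate transporter EAAT5, ranged from 0.93 to 8.84, Slc18a1, the VMAT1 of endocrine cells, from 4.52 to 13.0, Slc38a8 from 0.97 to 11.1, Slc17a9, the vesicular ATP carrier, from 1.13 to 17.8 and Slc43a1, the LAT3 carrier, from 0 to 10.9. With Slc3a1, Slc6a5 and Slc6a20b above these are the 20. Without the minimum, 15 of these 20 entered the fit. Called from P18 to P75 were then Slc17a9, Slc18a1 and Slc7a15 as higher and Slc38a11 and Slc6a5 as lower, and from P75 to 6 months Slc6a5 as higher. From 6 to 24 months Slc3a1 and Slc43a1 were called higher. From P18 to 24 months Slc17a9, Slc18a1, Slc43a1, Slc6a19 and Slc7a15 were called higher.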

How the data were processed

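Total RNA of the myelin fraction was sequenced in 12 libraries, 3 for each of the 4 ages. TopHat (2.0.8 in the submitters' processing notes) was used by the authors for alignment to mm9 and HTSeq 0.5.4p1 for counting on genes. Each count was then divided by the DESeq size factor of its library, and the deposited signal is this normalized read count per gene, not divided by length and not on a log scale. Whether the counting used strand is not given in the sources used here. Dividing each value by that of 1 read gave whole reads for 100% of the values (within 0.1), which set the depth of 20299052 to 27214385 reads on genes per library and fed the alternatives with edgeR and DESeq2.

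Libraries were grouped by the age in their labels. Genes with a mean of at least 10 (14634) were tested with limma 3.58.1 (trend, empirical Bayes) in R 4.3.3 on log2(normalized read count + 1), in 1 fit over the 12 libraries with age as the term, two-sided, with Benjamini-Hochberg adjustment and a call at an adjusted p under 0.1. A fold is on this scale and understates the change of low genes. Tables and figures were made with Python 3.11.15, pandas 2.3.3, numpy 2.4.6 and matplotlib 3.10.9. The code was tested on simulated data. Gene models came from GENCODE vM1 on NCBIM37, found by symbol for 71 of the 72 members, and a level per kilobase is the normalized read count divided by the merged exon length. Promoter windows came from RefSeq on GRCm38.p6.

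Values per library are given for the 2 members with the highest mean in each role list and for members called with a change over 2-fold and a mean of at least 50 at 1 of the ages compared. Other members are given by means or ranges, and pathway genes are named only where called with a change over 2-fold. Exceptions are Atf4, Gclm and Gss, which were chosen after their values were seen, as were the marker sums without the most abundant gene. The members and all lists were chosen with earlier results of these data known. Libraries with the same replicate number come from different mice. Their deviations from the age means correlated at 0.161, 0.101 and 0.187 between P75 and 6 months and at -0.213 to 0.0286 in the other comparisons. The labels give no pairing across ages, and the main fit had no block for the replicate number.

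Results were recomputed with another pseudocount (0.5 or 10), without the filter or with a mean over 100, with libraries of just the 2 ages in question, with a block for the replicate number, after scaling to equal totals, after quantile normalization, with edgeR 4.0.16 and DESeq2 1.42.0 on recovered reads, at a false discovery rate of 0.05, and with each library left out in turn. Protein sequences were not used here. The values of 1 member are not reported here, though it is part of the counts over members.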

Additional observations from a re-analysis of the deposited data

How the results depend on the processing

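No called change of a tested member reversed its sign under any alternative run, while changes without a call did so in 86 combinations of member, comparison and alternative. Counts of members called higher or lower stayed within 1.5 times of the reported ones in 171 combinations of count and alternative and moved further in 14. Members lower from P18 to P75 (0 reported) numbered 2 with no filter, 1 with only the 2 ages compared and 1 with quantile normalization. Members lower from P75 to 6 months (5) numbered 3 among genes with a mean over 100, and members lower from P18 to 24 months (1) numbered 0 there, since fewer genes were tested. Members lower from 6 to 24 months (2) numbered 8 with only the 2 ages compared, and the cause was not tested. With each library left out in turn, members higher numbered 23 to 30 from P18 to P75, 34 to 39 from P75 to 6 months, 6 to 13 from 6 to 24 months and 41 to 45 from P18 to 24 months. Members lower numbered 0 to 2, 4 to 5, 1 to 5 and 1 in all in the same order.

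Over all tested members and the alternatives that refit the data, 2724 calls were kept, 73 were lost and 52 were gained. Losses were most frequent for Slc7a7 from P18 to 24 months (9 alternatives), Slc1a1 from P18 to P75 (7), Slc6a6 from P18 to 24 months (6) and Slc7a14 from 6 to 24 months (6). Scaling to the same total moved the median change of all genes from P18 to P75 from 0.02 to 0.14 and gave 32 members higher and 0 lower. Quantile normalization moved that from P18 to 24 months to -0.12, with 42 higher and 1 lower. edgeR and DESeq2 each called 38 higher and 5 lower from P75 to 6 months. With the replicate block, members higher numbered 28, 38, 11 and 44 and members lower 0, 5, 2 and 1 in the 4 comparisons. From P75 to 6 months the block changed no member's call. Without the filter, 15 of the 20 members under it were fitted, with 3, 1, 2 and 5 of them higher and 2, 0, 0 and 0 lower in the same 4 comparisons, and 5 members had no reads to test.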
